A study of Homo sapiens with 18 samples.

Results

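RABIF, also known as MSS4, is a small chaperone of Rab proteins, and RAB8A, RAB8B, RAB10 and RAB13 are exocytic Rabs that it binds. These 5 genes were followed among the 58870 genes of the count table, where each symbol matched 1 row. The question was how the message of the chaperone and the messages of its clients stood when the transcription factor NRF1 lost an exon. RABIF was chosen because its message was low in the libraries under the NRF1 guide, so its own values in that comparison are given as a description without a test. The 4 Rabs were taken as its clients.

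The samples were 18 polyadenylated RNA libraries of HEK293T, a line derived from human embryonic kidney, 3 for each of 6 groups. Cells received 1 of 3 base editors, which join a deaminase to a Cas9 nickase and change single bases where a guide RNA directs them. SaABE joined the adenine deaminase ABE8e to the Staphylococcus aureus nickase, SpABE joined ABE8e to the Streptococcus pyogenes nickase, and SpCBE joined the cytosine deaminase evoCDA1 to the S. pyogenes nickase. Each editor carried either a guide aimed at an exon 7 splice site of NRF1 or, as control, an intergenic guide. The paper lists a separate plasmid for each editor and target, and its editors were aimed at the splice donor or acceptor. Differences between editors therefore cannot be told apart from differences in guide, splice site or degree of skipping. All 6 groups had 750000 cells transfected, 48 hours of puromycin and RNA collected 72 hours after transfection, so the cells were a selected transfected population and not clones.

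Rabs are small GTPases that switch between a GDP-bound and a GTP-bound state and carry vesicles to their target membranes while active. Exchange factors load GTP, GTPase activators end the active state, a prenyl transferase adds the lipid anchor and GDI recycles the inactive form from membranes. RABIF was first described as an exchange factor for exocytic Rabs and is now seen mainly as a chaperone that holds the nucleotide-free Rab protein and protects it from degradation. RAB8A and RAB8B act in polarized secretion and cilium formation, RAB10 in basolateral sorting and the insulin-stimulated delivery of glucose transporters to the cell surface, and RAB13 in the assembly of epithelial junctions. The libraries measured messages only, and the amount of any Rab protein was not measured.

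Libraries held 28101094 to 40687447 counts, of which 0.939% to 1.191% came from mitochondrial genes. Levels are in CPM, counts scaled by TMM to a common library total. NRF1 itself, the targeted gene, was read first. In SaABE it stood at 31.5, 32.1 and 33.1 CPM under the intergenic guide and at 39.4, 40.3 and 41 CPM under the NRF1 guide. In SpABE the levels were 26.7, 28.5 and 28.8 CPM against 35.7, 37.5 and 41.6 CPM, and in SpCBE 24.4, 25.0 and 26.0 CPM against 38.3, 39.5 and 43.8 CPM. NRF1 was higher with its guide in every editor, with no overlap. In SpABE 21.7% of all genes tested separated upwards in this way, and for the other editors that share is not given here. A count over the whole gene does not show whether exon 7 was skipped, so these levels do not check the labels. Of 5 genes that HEK293 lines are known to express, VIM averaged 710 CPM under the NRF1 guide and 714 CPM under the intergenic guide, NEFM 77.8 and 79.1 CPM, LHX1 3.66 and 3.47 CPM and PAX2 2.09 and 1.99 CPM. NEFL, a neurofilament gene, was the 1 of these that passed the test, and fell from 55.7 to 43.3 CPM, by 0.36 on the log2 scale (adjusted p = 6.1e-11 by edgeR). Marker sums for blood, fibroblast and epithelial cells stayed at or under 25.0 CPM, and PTPRC, CD3E, HBB, COL1A2, DCN, KRT5, KRT14 and KRT19 had means under 0.1 CPM in the 18 libraries. Others were present and passed the test by edgeR. From the intergenic to the NRF1 guide, COL1A1 fell from 19.9 to 17.6 CPM (adjusted p = 0.000411). CDH1 fell from 6.54 to 5.15 CPM (adjusted p = 0.00013), and CD14 rose from 1.17 to 1.51 CPM (adjusted p = 0.0184).

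RABIF lies on chromosome 1 from 202878282 to 202889149 on the minus strand (hg38). Its promoter is shown because NRF1 binds GC-rich elements built on TGCGCA, and this promoter holds that half-site several times. The 150 bases before the annotated start, chr1:202889150-202889299, are given 5′ to 3′ on the strand of the gene, with TGCGCA in capitals. The corresponding 150 bases of RAB10, chr2:26033934-26034083 on the plus strand, are given for comparison, since RAB10 was the other of the 5 genes with a match.
RABIF: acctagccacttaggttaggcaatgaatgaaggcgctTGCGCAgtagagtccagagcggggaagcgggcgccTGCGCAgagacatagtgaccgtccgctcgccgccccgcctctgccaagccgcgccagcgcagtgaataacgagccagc
RAB10: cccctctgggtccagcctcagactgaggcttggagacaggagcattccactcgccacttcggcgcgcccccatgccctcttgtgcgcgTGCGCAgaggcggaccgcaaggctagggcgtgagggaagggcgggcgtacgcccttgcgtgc

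RABIF held TGCGCA at -113 to -108 and at -78 to -73 from the start. The third copy lay past the start, at 13 to 18, in capitals within chr1:202889122-202889147.
RABIF downstream site: agacagcgtcTGCGCAgccgtggctg
RAB10 held TGCGCA once, at -62 to -57. The letters read the same on both strands. The windows of RAB8A, RAB8B and the 2 listed starts of RAB13 held no match. The core of the NRF1 consensus had 1 match in RAB10, overlapping TGCGCA, and no match in RABIF, whose window had 2 matches once any base was allowed at the 1 central position where the consensus takes either pyrimidine.

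**Figure D1:**
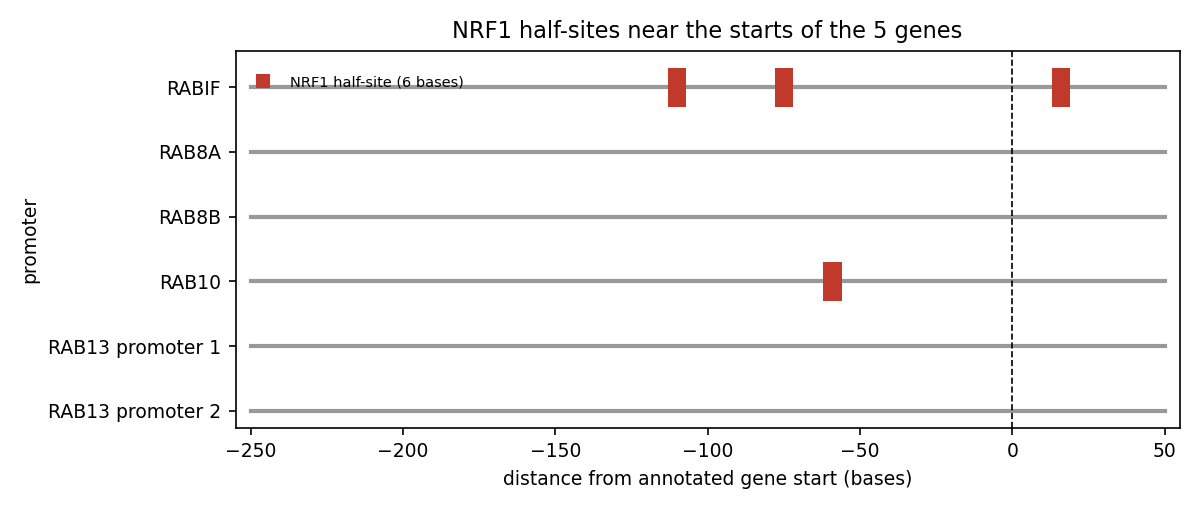
Matches to TGCGCA, the half-site of NRF1, in the RefSeq promoter window of each gene, from 250 bases before to 50 bases after the annotated start, by distance from the start in bases. RABIF has 3 boxes, RAB10 has 1, and the other windows are empty.

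These windows are the 300-base promoters of RefSeq (GRCh38.p14). Of 35116 such promoters, 8.24% held TGCGCA, 1.07% held it at least 2 times and 0.165% at least 3 times. The consensus core was in 2.77% of them, and its form with any central base in 5.78%. These letters were chosen after the RABIF promoter had been seen, and a match does not show binding. A gene counts here as called lower when its adjusted p over all 3 editors was under 0.05 and its level fell by more than 0.5 on the log2 scale. Among 11607 tested genes with a promoter in the RefSeq table, RABIF and RAB10 left out, 4.25% were called lower. That share was 2.69% of 9812 genes without TGCGCA, 10.9% of 1537 genes with 1 copy, 21.4% of 220 genes with 2 and 39.5% of 38 genes with 3 or more, as in RABIF. Those 38 genes had a median log2 fold change of -0.36, against 0.02 in the genes without a copy. Split by the consensus core, 16.4% of 691 genes with a match were called lower. Of 10916 genes without a match, as RABIF is, 3.48% were called lower. The class of RABIF thus depends on the letters used, and a role of its sites was not tested.

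RABIF messages were low wherever the NRF1 guide was used. In SaABE, RABIF stood at 18.1, 18.7 and 20.1 CPM under the intergenic guide and at 5.27, 4.90 and 4.29 CPM under the NRF1 guide. In SpABE it went from 19.6, 17.5 and 17.1 CPM to 6.05, 6.31 and 6.46 CPM, and in SpCBE from 19.5, 19.9 and 21.4 CPM to 5.59, 4.71 and 5.89 CPM. The highest of the 9 NRF1-guide libraries, 6.46 CPM, was well below the lowest of the 9 intergenic-guide libraries, 17.1 CPM. Of all genes tested, 5.25% separated downwards in this way. RABIF was chosen on this comparison, so its own separation is only a description.

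Over all 3 editors RABIF averaged 19.1 ± 1.36 CPM (SD, n = 9) under the intergenic guide and 5.50 ± 0.754 CPM (SD, n = 9) under the NRF1 guide, a 3.47-fold lower level. The log2 fold change was -1.79 (SE 0.0629) over all 3 editors, -1.98 (SE 0.087) in SaABE, -1.53 (SE 0.0797) in SpABE and -1.91 (SE 0.081) in SpCBE. Of the 17743 genes tested, 4.37% were called lower over all 3 editors and 1.13% higher. The gene was chosen for this comparison, so nothing is read from that share. These values rest on 131 to 843 counts per library. In bulk RNA, fewer cells with the message and less message per cell cannot be told apart.

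**Figure D2:**
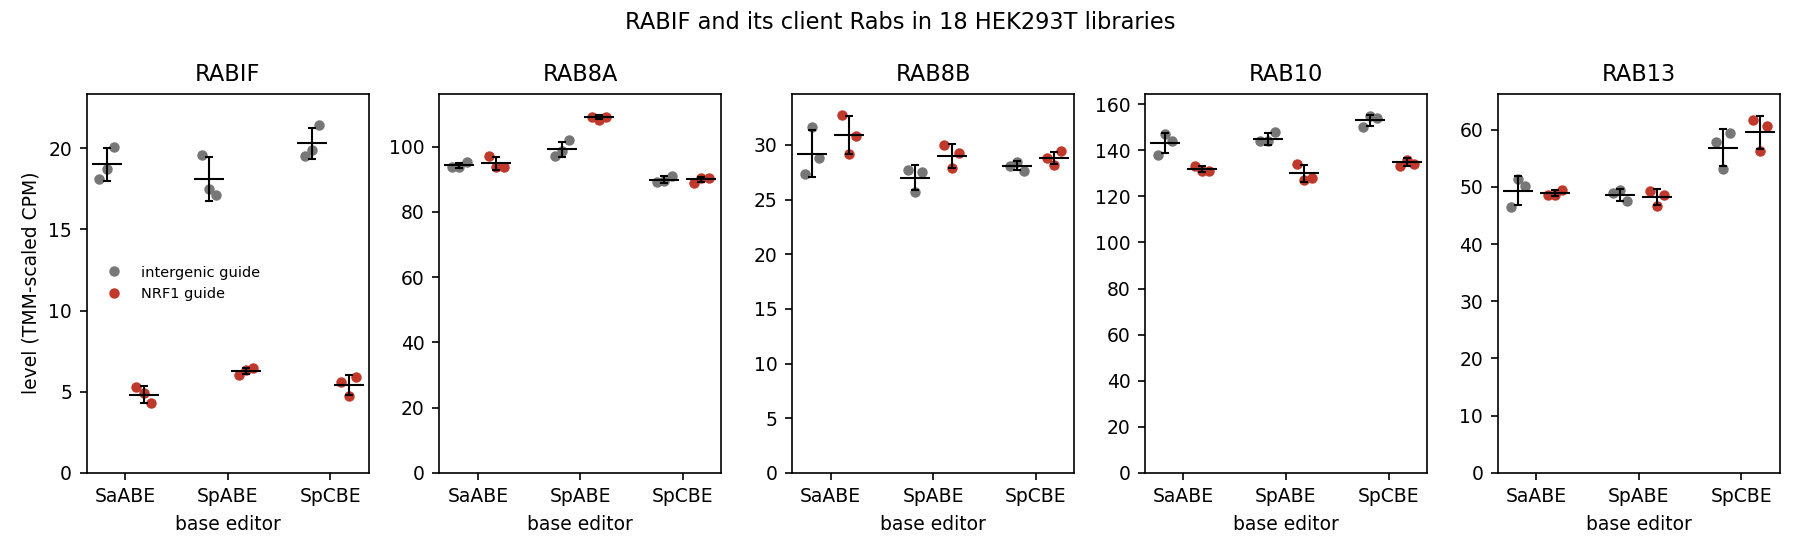
Level of each gene in TMM-scaled CPM in the 18 libraries, by base editor; grey points are intergenic-guide libraries, red points NRF1-guide libraries, and black marks the mean and SD of 3 libraries, with every axis starting at 0. RABIF falls into separate bands at 4.29 to 6.46 and 17.1 to 21.4 CPM, RAB10 separates less widely, and RAB13 overlaps in every editor.

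The genes on either side of RABIF did not share its low level. KLHL12, an adaptor of a ubiquitin ligase that acts on the COPII vesicle coat, lies 1966 bases beyond the start of RABIF on the same strand and stood at 64.9 ± 4.62 CPM (SD, n = 9) under the intergenic guide and 70.2 ± 4.0 CPM (SD, n = 9) under the NRF1 guide. It rose slightly, with a log2 fold change of 0.11 (SE 0.026, adjusted p = 0.00121 by edgeR). AC098934.2, 3040 bases away on the other side and on the opposite strand, averaged 2.22 and 2.38 CPM (adjusted p = 0.353 by edgeR).

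The RABIF difference was then compared between editors, and tested there because RABIF was chosen for its low level and not for such a difference. The 6.05 to 6.46 CPM of the SpABE NRF1-guide libraries lay above all SaABE NRF1-guide libraries (4.29 to 5.27 CPM) and all SpCBE NRF1-guide libraries (4.71 to 5.89 CPM). The share of all genes with such a separation was not counted. The log2 fold change in SaABE minus that in SpABE was -0.46 (SE 0.121, adjusted p = 0.0154 by edgeR), that in SpABE minus that in SpCBE was 0.38 (SE 0.116, adjusted p = 0.0408 by edgeR), and that in SaABE minus that in SpCBE was -0.08 (95% interval -0.33 to 0.18, adjusted p = 0.81 by edgeR). RABIF was thus less reduced in SpABE than in the other 2 editors, which did not pass the test against each other. The tests against SpABE share the SpABE libraries, and of all genes 11.7% and 8.96% passed them, as 4.09% did for SaABE minus SpCBE. With single libraries left out, the adjusted p of the first rose over 0.05 in 1 of 12 cases, without SaABE NRF1 replicate 3 (adjusted p = 0.0726). That of the second did so in 9 of 12, reaching 0.144, and stayed under 0.05 without SpABE intergenic replicate 1, SpCBE intergenic replicate 1 or SpCBE NRF1 replicate 3.

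Under the intergenic guide, no comparison of RABIF levels between 2 editors passed the test. The means were 19.0 ± 1.02 CPM in SaABE, 18.1 ± 1.33 CPM in SpABE and 20.3 ± 0.968 CPM in SpCBE (SD, n = 3 each), and the 3 comparisons had adjusted p of 0.478, 0.301 and 0.0685 by edgeR. The largest difference was SpABE minus SpCBE, at -0.16 (95% interval -0.31 to -0.02) on the log2 scale. Without SpABE intergenic replicate 1 that difference was -0.22, with an adjusted p of 0.0251 by edgeR.

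Of the 4 client Rabs, RAB10 was the 1 that fell over all 3 editors at an adjusted p under 0.05, in a background where 18.8% of all genes tested were lower and 20.6% higher by that measure. It did not reach the fold size of a called gene. In SaABE, RAB10 stood at 138, 147 and 144 CPM under the intergenic guide and at 133, 131 and 131 CPM under the NRF1 guide. In SpABE the levels were 144, 144 and 148 CPM against 134, 127 and 128 CPM, and in SpCBE 150, 155 and 154 CPM against 133, 136 and 134 CPM. All 9 NRF1-guide libraries, at 127 to 136 CPM, lay below all 9 intergenic-guide libraries, at 138 to 155 CPM, a separation downwards that 5.25% of all genes tested showed.

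RAB10 averaged 147 ± 5.25 CPM (SD, n = 9) under the intergenic guide and 132 ± 2.99 CPM (SD, n = 9) under the NRF1 guide, a log2 fold change of -0.15 (SE 0.0182, adjusted p = 2.26e-07 by edgeR). It fell in each editor, by 0.12 on the log2 scale in SaABE (SE 0.0285, adjusted p = 0.00252 by edgeR), by 0.16 in SpABE (SE 0.0279, adjusted p = 6.13e-05) and by 0.18 in SpCBE (SE 0.0277, adjusted p = 1.81e-05). In these editors 32.4%, 32.6% and 23.1% of all genes tested passed the same threshold in either direction. The RAB10 effects in 2 editors never differed by more than 0.07 on the log2 scale (adjusted p = 0.399 for SaABE minus SpCBE, 95% interval -0.02 to 0.15). Under the intergenic guide, RAB10 was lower in SaABE and in SpABE than in SpCBE, by 0.10 (adjusted p = 0.00818) and 0.07 (adjusted p = 0.0379) on the log2 scale by edgeR. The first of these calls was lost without SaABE intergenic replicate 1 (adjusted p = 0.051), and the second in 5 of 6 such fits, all but that without SpABE intergenic replicate 3. Of all genes tested, 40.6% passed the first of these control comparisons and 35.5% the second, in either direction. RAB10 spans chromosome 2 from 26034084 to 26137454 on the plus strand (hg38), and its promoter is the second sequence printed above. RNU6-942P on the same strand (107 bases) and the pseudogene RPS2P15 on the opposite strand (820 bases) overlap RAB10, and neither was among the genes tested.

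RAB8A was higher under the NRF1 guide in SpABE. Its levels there were 97.2, 98.5 and 102 CPM under the intergenic guide and 109, 108 and 109 CPM under the NRF1 guide, with no overlap, as for 21.7% of all genes tested in that direction. The log2 fold change was 0.13 (SE 0.0264, adjusted p = 0.000287 by edgeR). In SaABE, RAB8A stood at 93.8, 93.7 and 95.2 CPM against 97.0, 93.7 and 93.7 CPM, and in SpCBE at 89.1, 89.4 and 91.0 CPM against 88.9, 90.5 and 90.3 CPM. The guides overlapped in both, with log2 fold changes of 0.01 (95% interval -0.05 to 0.07) and 0.00 (95% interval -0.05 to 0.06).

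The RAB8A effect differed between SpABE and each of the others. SaABE minus SpABE was -0.13 (SE 0.0382, adjusted p = 0.0324 by edgeR) and SpABE minus SpCBE was 0.13 (SE 0.0378, adjusted p = 0.0275 by edgeR). Of all genes tested, 11.7% passed the first test and 8.96% the second. With single libraries left out, the first rose over 0.05 in 7 of 12 cases, up to 0.0785, and stayed under it without SaABE NRF1 replicate 1, SaABE intergenic replicate 1 or 2, SpABE NRF1 replicate 2 or SpABE intergenic replicate 3. The second rose over 0.05 in 6 of 12, up to 0.0708, and stayed under it without SpABE NRF1 replicate 2, SpABE intergenic replicate 3, SpCBE NRF1 replicate 2 or 3 or SpCBE intergenic replicate 1 or 2. RAB8A also differed between editors under the intergenic guide, where 38.4% of all genes tested differed for SaABE against SpABE, 40.6% for SaABE against SpCBE and 35.5% for SpABE against SpCBE. SpABE was the highest, at 99.2 ± 2.34 CPM, then SaABE at 94.2 ± 0.815 CPM and SpCBE at 89.8 ± 1.02 CPM (SD, n = 3 each). SpABE minus SpCBE was 0.14 on the log2 scale (SE 0.0267, adjusted p = 0.000187 by edgeR), while the step from SpABE to SaABE had an adjusted p of 0.0345 and that from SaABE to SpCBE one of 0.0451. The first of these steps kept its call only without SpABE intergenic replicate 1 and the second only without SpCBE intergenic replicate 3.

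Over all 3 editors RAB8A averaged 94.4 ± 4.26 CPM under the intergenic guide and 97.8 ± 8.59 CPM under the NRF1 guide (SD, n = 9 per guide), and its log2 fold change of 0.05 (SE 0.021) had an adjusted p of 0.0662 by edgeR. Within edgeR it passed with DESeq2's size factors (0.06, adjusted p = 0.0409) and with a filter of 1 CPM in 9 or more libraries (0.05, adjusted p = 0.0488), and DESeq2 gave 0.06 with an adjusted p of 0.0304, so this value lies close to the threshold. RAB8A lies on chromosome 19 from 16111889 to 16134234 on the plus strand (hg38). A long noncoding RNA on the opposite strand, AC008894.2, overlaps it over 10574 bases at 0.309 CPM under the intergenic guide and 0.344 CPM under the NRF1 guide. HSH2D, a protein-coding gene on the same strand that was not among the genes tested, overlaps RAB8A over 207 bases.

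RAB8B, the close relative of RAB8A, had levels of 27.3, 31.6 and 28.8 CPM under the intergenic guide in SaABE and 32.7, 29.2 and 30.8 CPM under the NRF1 guide. In SpABE it averaged 27.0 ± 1.14 CPM against 29.0 ± 1.07 CPM (SD, n = 3), with 27.7 CPM as the highest control and 27.9 CPM as the lowest library under the NRF1 guide. In SpCBE it stood at 28.1, 28.4 and 27.6 CPM against 28.8, 28.2 and 29.4 CPM. The guides did not overlap in SpABE, as for 21.7% of all genes tested in that direction, and overlapped in the other editors. Averages over all 3 editors were 28.1 ± 1.59 CPM and 29.6 ± 1.46 CPM (SD, n = 9 per guide), with a log2 fold change of 0.07 (SE 0.0308, adjusted p = 0.0596 by edgeR), and DESeq2 gave 0.08 with an adjusted p of 0.0485. In the single editors the adjusted p were 0.268, 0.112 and 0.679 by edgeR. RAB8B spans chromosome 15 from 63189560 to 63267776 on the plus strand (hg38).

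RAB13 was highest in SpCBE, and its guides overlapped in every editor. In SaABE it stood at 46.5, 51.4 and 50.1 CPM under the intergenic guide and 48.5, 48.6 and 49.5 CPM under the NRF1 guide, and in SpABE at 48.9, 49.5 and 47.5 CPM against 49.3, 46.7 and 48.5 CPM. In SpCBE the levels were 57.9, 53.2 and 59.4 CPM against 61.7, 56.3 and 60.6 CPM. Every SpCBE library exceeded every library of the other editors, whichever the guide, and how many genes separate in this way was not counted. Under the intergenic guide, SaABE minus SpCBE was -0.20 on the log2 scale (SE 0.0446, adjusted p = 0.00086 by edgeR) and SpABE minus SpCBE was -0.22 (SE 0.0438, adjusted p = 0.000343 by edgeR). Of all genes tested, 40.6% passed the first of these comparisons and 35.5% the second, in either direction.

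Between guides, RAB13 had a log2 fold change of 0.02 over all 3 editors (95% interval -0.04 to 0.07, adjusted p = 0.709 by edgeR). The value of RAB13 is less certain than the others, because a protein-coding model on the same strand, AL358472.6, overlaps it over 4630 bases of its span from 153981617 to 153986358 on chromosome 1 (hg38, minus strand). RAB13 counts were not whole in any of the 18 libraries, while those of the other 4 genes were whole in all. AL358472.6 averaged 3.75 CPM under the intergenic guide and 3.72 CPM under the NRF1 guide.

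**Figure D3:**
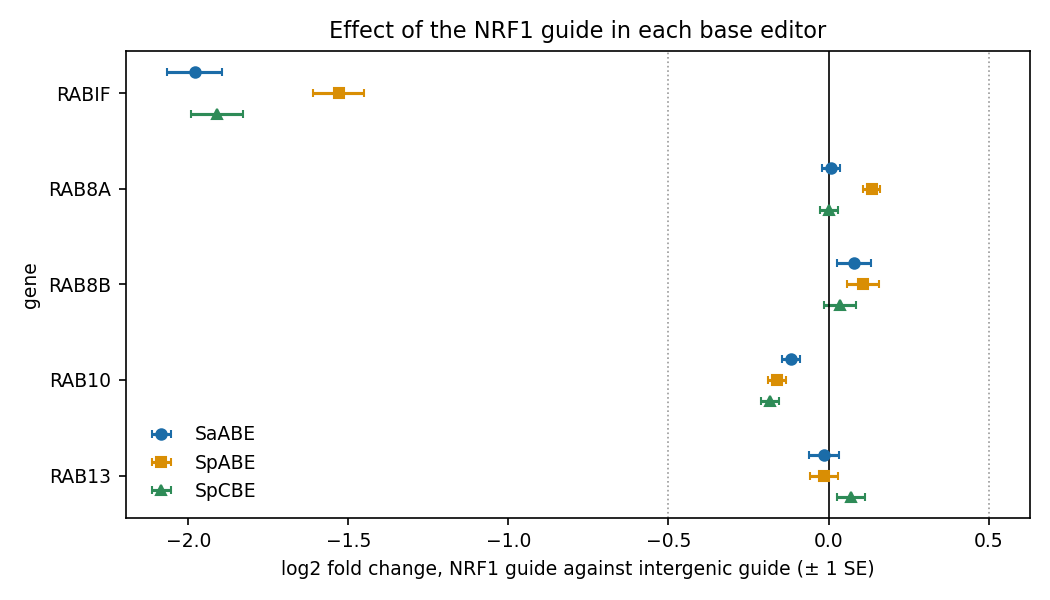
Log2 fold change of each gene under the NRF1 guide set against its control in each base editor, with bars for 1 SE and dotted lines at 0.5 either side of 0. RABIF lies at -1.98 to -1.53, RAB10 is below 0 in all 3 editors, and RAB8A is above 0 in SpABE.

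Per length, RABIF was far less abundant than 3 of its clients. Divided by the annotated exon length, levels under the intergenic guide were 40.2 ± 1.44 CPM per kilobase for RAB10, 19.1 ± 0.864 for RAB8A, 18.8 ± 1.62 for RAB13, 6.12 ± 0.435 for RABIF and 5.51 ± 0.311 for RAB8B (SD, n = 9 per guide). RAB8A and RAB13 were within their spread of each other on this scale, and the ranges of RABIF (5.49 to 6.85) and RAB8B (5.03 to 6.20) overlapped. With the length of the longest transcript RAB8A came to 36.8 CPM per kilobase and RAB13 to 24.3, so that order depends on which transcript is used. Under the NRF1 guide RABIF stood at 1.76 ± 0.242 CPM per kilobase and RAB8B at 5.79 ± 0.286 (SD, n = 9 per guide).

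The summed client messages changed little beside RABIF. Per kilobase the 4 clients added up to 83.7 ± 2.43 CPM under the intergenic guide and 80.8 ± 1.74 CPM under the NRF1 guide (SD, n = 9 per guide). Over all editors the 2 ranges, 79.2 to 87.5 and 78.3 to 82.9, overlapped. Within editors they overlapped in SaABE and SpABE but not in SpCBE, at 85.4 to 87.5 against 81.7 to 82.9. The mean was lower under the NRF1 guide in each editor, at 81.9 against 79.2 in SaABE, 82.8 against 80.8 in SpABE and 86.2 against 82.4 in SpCBE. RABIF came to 7.32 ± 0.43 messages per 100 client messages under the intergenic guide and to 2.18 ± 0.29 under the NRF1 guide (SD, n = 9 per guide), again without a test because RABIF was chosen on this comparison. The share of RAB10 in the client sum was 48.1% ± 0.596 under the intergenic guide and 44.8% ± 0.874 under the NRF1 guide (SD, n = 9 per guide). On this scale RAB10 had the largest share in every library, at 43.5% or more. With the length of the longest transcript, RAB8A exceeded RAB10 in the SpABE NRF1-guide libraries, at 42.6, 42.1 and 42.5 CPM per kilobase against 37.6, 35.8 and 35.9. It also did so in SaABE NRF1 replicate 1, at 37.8 against 37.5, so that order too depends on the length used. The client sum, the RABIF ratio and the RAB10 share rest on the exon length and were not computed with the longest transcript. Under the intergenic guide, the longest transcript moved RAB8A from 19.1 to 36.8 CPM per kilobase and left RABIF at 6.12.

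Among the Rabs most like the clients, RAB3D, RAB3A and RAB35 fell further than RAB10, whose log2 fold change was -0.15. Of 6 further Rabs of the RAB1 and RAB3 groups, all tested, 3 fell and 1 rose over all 3 editors at an adjusted p under 0.05 by edgeR, where 18.8% of all genes tested fell and 20.6% rose. RAB3D and RAB3A, which act in regulated secretion, fell by 0.40 and 0.33 on the log2 scale, RAB3B fell by 0.14 and RAB1A, which works between the endoplasmic reticulum and the Golgi, rose by 0.07. Of RAB12, RAB15 and RAB35, RAB35, an endocytic recycling Rab, fell by 0.31 on the log2 scale, from 99.4 ± 3.61 to 80.0 ± 4.84 CPM (SD, n = 9 per guide, adjusted p = 1.03e-08 by edgeR). None of these 9 genes reached the fold size of a called gene.

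Among 48 other Rabs, 40 could be tested, of which 7 rose and 8 fell by that measure, shares near the 20.6% and 18.8% of all genes tested. RAB6B, a Golgi Rab, fell from 28.9 ± 1.96 to 11.6 ± 0.829 CPM (SD, n = 9 per guide), a log2 fold change of -1.32 (adjusted p = 6.94e-18 by edgeR). RAB23, a negative regulator of hedgehog signalling, fell from 35.0 ± 3.21 to 14.8 ± 1.23 CPM (SD, n = 9 per guide), a log2 fold change of -1.24 (adjusted p = 7.59e-20 by edgeR). Both were thus reduced by less than RABIF, and both far more than any client. RAB4A and RAB18 fell by 0.39 and 0.21 on the log2 scale. The other 2 called Rabs, RAB26 at -0.58 and RAB27B at 0.68, averaged under 1 CPM in both groups and are named because they were called, not by the rule for named genes.

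Of the genes that process or regulate the clients, those for prenylation moved in both directions, in the same background of 20.6% higher and 18.8% lower over all genes tested. Of 6 genes for prenylation and GDI, RABGGTB, the catalytic subunit of the Rab prenyl transferase, fell by 0.30 on the log2 scale, from 103 ± 12.3 to 83.5 ± 5.85 CPM (SD, n = 9 per guide, adjusted p = 2.09e-08 by edgeR). CHML, an escort protein of that enzyme, rose by 0.22 and GDI2 by 0.13, while RABGGTA stood at -0.05 (adjusted p = 0.246). Of 7 exchange factors, RAB3IP, which activates RAB8A and is known as Rabin8, was the 1 that passed and fell by 0.29 on the log2 scale, from 47.3 ± 2.88 to 38.8 ± 3.6 CPM (SD, n = 9 per guide, adjusted p = 3.28e-09 by edgeR). The DENND4 exchange factors of RAB10 lay between -0.06 and -0.02. The 4 GTPase activators, TBC1D4 of the insulin pathway among them, lay between -0.06 and 0.09, with adjusted p from 0.124 to 0.658.

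Effectors and the exocyst, the complex that tethers secretory vesicles, showed changes of 0.25 or less on the log2 scale. Of 16 effectors, 1 rose and 4 fell over all 3 editors by edgeR at an adjusted p under 0.05, as 20.6% and 18.8% of all genes tested did, with EHBP1 at 0.11, MYO5A at -0.12, EHBP1L1 at -0.22 and MYO5C at -0.11. Of 9 exocyst genes 4 rose and 3 fell, with EXOC8 at -0.25, EXOC4 at 0.12, EXOC7 at -0.11 and EXOC6B at 0.10. PPM1H, the phosphatase that removes the marks LRRK kinases put on RAB8A and RAB10, fell by 0.15 on the log2 scale (adjusted p = 0.000749 by edgeR), and LRRK2 stood at -0.24 (adjusted p = 0.0692). Over the 9 lists, 94 of 102 genes were tested, of which 15 rose and 22 fell by this measure, beside 20.6% and 18.8% of all genes tested. Of these, 1 was called higher and 3 lower, beside 1.13% and 4.37% of all genes tested, so the lists as a whole lay near the background. Their tested genes had a median log2 fold change of -0.01, against 0.01 over all genes tested.

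The list genes were also split by TGCGCA in their promoters. Of the 94 genes, 77 had a RefSeq promoter, and 12 of these held TGCGCA. Of these 12, 7 fell at an adjusted p under 0.05 by edgeR, as 18.8% of all genes tested did, and 5 did not pass, with log2 fold changes from -1.24 to 0.03 and a median of -0.15. Of the 65 without a match, 13 rose, 14 fell and 38 did not pass, with a median of 0.01. The 7 were RAB23, RAB4A, RAB35, RABGGTB, EXOC8, RAB18 and RAB34, while RAB6B, RAB3D and RAB3IP held no TGCGCA. EXOC8 held 4 copies and fell by 0.25, which is more copies than RABIF and a smaller change. The choice of letters matters for single genes. The consensus with any central base marked 13 genes, with RAB6B among them and RAB23 not. Of these 13, 8 fell, beside the same 18.8% of all genes tested. The shares of all genes with either motif that fell by this measure were not counted, and a role of the sites was not tested.

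**Figure D4:**
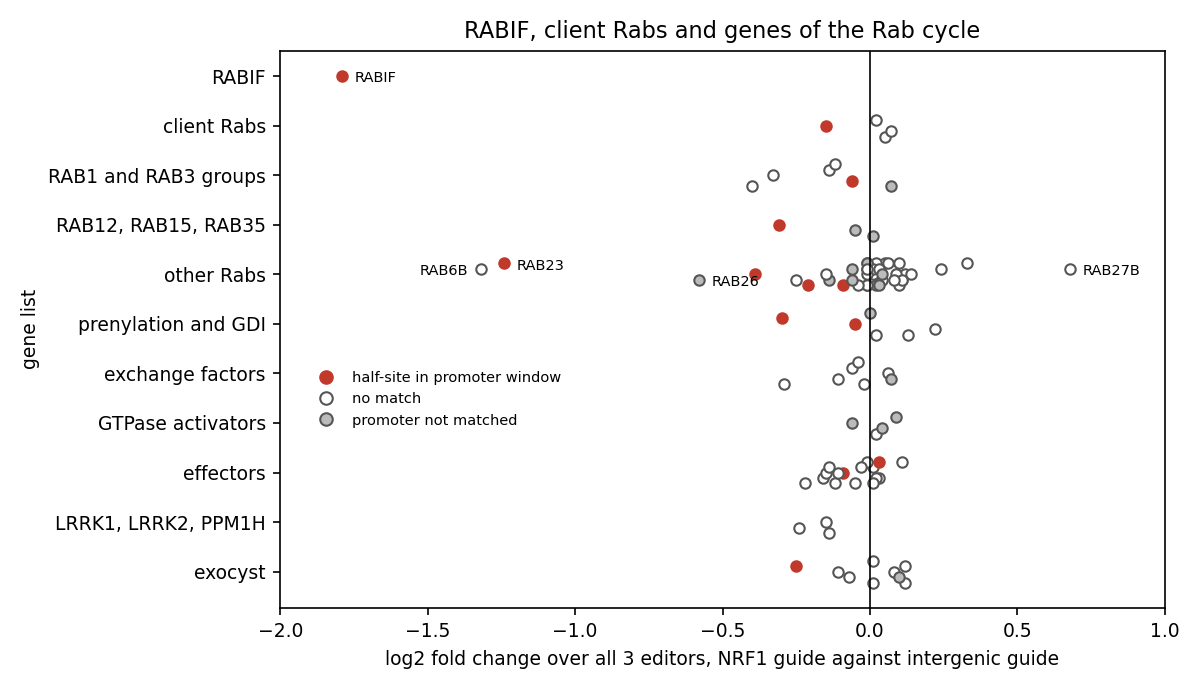
Log2 fold change over all 3 editors, NRF1 guide against intergenic guide, of RABIF, its 4 clients and the tested genes of 9 lists around the Rab cycle; each point is a gene, filled red where its promoter window holds TGCGCA, white where it does not and grey where no promoter was matched. RABIF at -1.79 lies farthest to the left, followed by RAB6B at -1.32 and RAB23 at -1.24, and 1 red point lies above 0, at 0.03.

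Among 11153 genes with a mean of at least 5 CPM, the 5 whose log2 CPM followed RABIF most closely over the 18 libraries were NEK4 (Pearson r = 0.992), FBXO9 (r = 0.989), IDE (r = 0.989), MRS2 (r = 0.988) and NBPF1 (r = 0.988). NEK4 is a kinase, IDE the insulin-degrading enzyme and MRS2 a magnesium channel of mitochondria. They had log2 fold changes of -0.88, -0.72, -0.83, -1.65 and -0.82 over all 3 editors, so this likeness describes the difference between the guides that all 18 points share. RAB10 had r = 0.872 with RABIF, RAB8A -0.187, RAB8B -0.47 and RAB13 -0.0244.

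With the mean of each group taken away, the 5 closest were others, namely GCLC (r = 0.878), TMEM51 (r = 0.819), CCDC84 (r = 0.817), PSMC1 (r = 0.807) and IFNGR2 (r = 0.801). RAB10 then had r = -0.0786 with RABIF, RAB8A 0.0985, RAB8B 0.255 and RAB13 0.388. These correlations are descriptions over libraries that share guide, editor and depth, and carry no test.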

How the data were processed

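Polyadenylated RNA was sequenced from 18 HEK293T libraries in 6 groups of 3. Reads were trimmed with Cutadapt 1.18 and mapped with STAR 2.7.0f to hg38 with GENCODE 30 transcripts, and the submitters' processing notes name DESeq2 1.46.0. For the counting program, its strand setting and multi-mapped reads, the sources used here give no information. The authors deposited expected counts per gene without normalization. Of the nonzero values 19.63% were not whole, and they were rounded before testing, although whole counts had been planned for. The table has 36 library columns, of which 18 were not used.

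The members, gene lists and rule for named genes were chosen with earlier results of these data known. Named genes were the 5 members, NRF1, up to 4 genes per list with the smallest p, the tested neighbours of RABIF and the 5 genes most correlated with it by each measure. Genes were kept by filterByExpr (17743) and tested with edgeR 4.0.16 quasi-likelihood in R 4.3.3 after TMM scaling, with Benjamini-Hochberg adjustment over all genes. The fit over all 3 editors had the editor as an additive term. Single editors, their differences and the intergenic controls came from a fit of 6 group means. The fits were also run on simulated data drawn with the same spread for every gene. That run cannot speak for calls close to the threshold. The 15 tests of differences between editors and the other tests were adjusted within each comparison. Nothing in the labels says that replicates came from separate cultures, and the p-values therefore reflect only the spread between libraries, which may be technical. All pairs of libraries within a group differed by more than sampling noise. Gene positions and lengths are those of GENCODE 44 on hg38, promoters those of RefSeq, matched by symbol. Alternatives were DESeq2 1.42.0, other scaling and filters, no editor term, a replicate block and leaving out each library.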

Additional observations from a re-analysis of the deposited data

Results flagged for a closer look

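The effect of the NRF1 guide on RABIF and on RAB8A differed between SpABE and each of the other editors by the test of the difference itself. For RABIF the log2 fold change in SaABE minus that in SpABE was -0.46, and in SpABE minus that in SpCBE 0.38. For RAB8A these differences were -0.13 and 0.13. Of all genes tested, 11.7% passed for SaABE minus SpABE and 8.96% for SpABE minus SpCBE. With each library left out in turn, the adjusted p by edgeR rose over 0.05 in 1 of 12 fits for RABIF in SaABE minus SpABE (without SaABE NRF1 replicate 3, 0.0726) and in 9 of 12 in SpABE minus SpCBE (up to 0.144). For RAB8A it did so in 7 of 12 (up to 0.0785) and in 6 of 12 (up to 0.0708). In the intergenic-guide libraries RAB8A was also highest in SpABE, at 99.2 ± 2.34 CPM (SD, n = 3). Editor and guide plasmid changed together and cannot be told apart here, and no explanation was tested.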

How the results depend on the processing

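The RABIF difference between guides kept its direction and size in every alternative run, and the RAB10 fall over all 3 editors kept its direction and its adjusted p under 0.05 in all of them. RAB8A and RAB8B over all 3 editors passed the adjusted p under 3 alternatives, at 0.06 and 0.08 with DESeq2's size factors in edgeR, 0.06 and 0.08 with the DESeq2 Wald test, and 0.05 and 0.08 with a filter of 1 CPM in 9 or more libraries. RAB13 over all 3 editors was -0.01 without TMM factors. RAB8A was -0.01 both in SaABE and in SpCBE with the editor's own 6 libraries. Among the intergenic controls, RAB8A in SaABE minus SpCBE (0.07, DESeq2) and RAB10 in SpABE minus SpCBE (-0.07, DESeq2 and its size factors) no longer passed. With the longest transcript the levels per kilobase were 36.8 for RAB8A, 5.85 for RAB8B and 24.3 for RAB13. The cause of these shifts was not tested.

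With the replicate number as a block, RAB10 in SaABE was -0.13 with an adjusted p of 0.0624, and RAB8A was -0.01 in SaABE and in SpCBE. Blocked fits were run for the effect over all 3 editors and in each editor, and changed no other call of the 5 genes there. They were not run for differences between editors or for the intergenic controls. Whether the numbers pair the libraries is unsettled. The correlation of deviations from group means between same-numbered libraries of SpABE was 0.159, 0.12 and 0.123 by Spearman but -0.0602, 0.0272 and 0.166 by Pearson over 10023 genes. Both measures were looked at with 5 minimum levels after the data had been seen, and all 3 correlations exceeded 0.1 in 7 of these 10 ways in SpABE and in 0 of 10 in SaABE and in SpCBE. In SaABE the lowest was -0.375 by Spearman.

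With single libraries left out, the log2 fold change over all 3 editors ranged from 0.04 to 0.06 for RAB8A, 0.06 to 0.09 for RAB8B and 0.00 to 0.03 for RAB13. RAB8A passed without SpCBE intergenic replicate 3 (adjusted p = 0.0476), and RAB8B without SaABE NRF1 replicate 2, SaABE intergenic replicate 2 or SpCBE NRF1 replicate 2 (lowest adjusted p = 0.02). In SaABE the ranges were -0.01 to 0.02 for RAB8A, 0.03 to 0.14 for RAB8B and -0.05 to 0.02 for RAB13, and in SpABE -0.03 to 0.01 for RAB13. RAB8B in SaABE passed without SaABE intergenic replicate 2 (adjusted p = 0.0483). For SaABE minus SpABE they were -0.53 to -0.37 for RABIF, -0.16 to -0.11 for RAB8A, -0.07 to 0.03 for RAB8B and -0.04 to 0.03 for RAB13. For SaABE minus SpCBE they were -0.17 to 0.01 for RABIF, -0.02 to 0.01 for RAB8A and 0.00 to 0.10 for RAB8B. For SpABE minus SpCBE they were 0.30 to 0.45 for RABIF, 0.12 to 0.15 for RAB8A and 0.00 to 0.04 for RAB10. Among the intergenic controls, SaABE minus SpABE gave -0.09 to -0.06 for RAB8A, 0.06 to 0.16 for RAB8B, -0.04 to 0.00 for RAB10 and -0.01 to 0.06 for RAB13. SaABE minus SpCBE gave 0.06 to 0.08 for RAB8A, 0.00 to 0.11 for RAB8B and -0.11 to -0.07 for RAB10, and SpABE minus SpCBE gave -0.22 to -0.12 for RABIF and -0.08 to -0.06 for RAB10. RAB8B in SaABE minus SpABE passed without SaABE intergenic replicate 1 (adjusted p = 0.0207).

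Called genes over all 3 editors numbered 200 higher and 776 lower, and 81 and 581 with the 1 CPM filter, which tests fewer low genes. RABIF rests on 131 to 843 counts per library, so its counting error is larger than that of the other 4 genes.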
